A study of Rattus with 6 samples.

Results

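The genes described here encode the nuclear subunits of respiratory complexes II, III and IV, of the ATP synthase (complex V) and of the electron carrier cytochrome c. They were taken from the deposited expression table as the protein-coding rows named Cycs or Cyc1 and those whose names begin with Sdh (subunits a to d), Uqcr, Atp5, or Cox followed by a digit from 4 to 8 and a subunit letter. The rule used names only and no measured value. It gave 46 of the 54012 genes in the table: 4 of complex II, 9 of complex III with Cyc1, 16 of complex IV, 16 of complex V and Cycs itself. Cox4i1 and Cox4i2, the alternative copies of subunit IV of complex IV, do not match the rule and are given with the related genes further on.

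Complex II (succinate dehydrogenase) oxidises succinate in the citric acid cycle and passes the electrons to coenzyme Q. Complex III carries them on to cytochrome c, a small soluble protein of the intermembrane space that also triggers caspase activation when it leaks into the cytosol. Complex IV (cytochrome c oxidase) gives the electrons to oxygen, and complex V uses the proton gradient built on the way to make ATP. Complex II is wholly nuclear encoded, whereas complexes III, IV and V also hold subunits encoded by mitochondrial DNA. Several complex IV subunits exist as a widely expressed copy and a copy typical of heart and skeletal muscle.

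The 6 libraries came from primary cultures labelled as vascular smooth muscle cells of the aorta. Of these, 3 cultures carried a control siRNA (si-NC, genotype label WT) and 3 an siRNA against CDCP1 (si-CDCP1, genotype label CDCP1 knockdown). Every culture, controls included, had been given angiotensin II (Ang II), a vasoconstrictor peptide hormone, and the sources used here give neither its dose nor its duration. The title of the series names carotid artery stenosis and mitochondrial autophagy as its subject. Nothing in the labels says whether replicates are separate animals or isolations, so the p-values below measure only how these libraries vary, which may be technical variation.

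Between 16050517 and 19771638 reads per library fell in listed genes. The organism label is rat, while the values belong to mouse genes on the build mm10, so names and coordinates are those of mouse genes, and a value near 0 need not mean that the transcript was absent. Cdcp1, the siRNA target, had 2, 2 and 1 reads in si-NC replicates 1, 2 and 3 and 0, 5 and 0 reads in the corresponding si-CDCP1 libraries, too few to check the labels by. Of 9 smooth muscle markers, only Acta2 and Smtn averaged 1 FPKM or more (FPKM being fragment counts divided by gene length and by a library total), and Tagln, Cnn1 and Myh11, which define contractile smooth muscle, lay at 0.216 FPKM or less in every library. Of 5 fibroblast markers, Col1a1, Pdgfra and Dcn averaged 1 FPKM or more, and Lum and Thy1 did not. No endothelial or epithelial marker did. The si-CDCP1 replicate 3 stood apart from the rest: its correlation with the other libraries over tested genes was between 0.979 and 0.983, against 0.988 to 0.991 among the other 5. It held the highest value of the 6 libraries for 34.0% of tested genes and the lowest for 30.0%, so results are given with and without it.

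The transcripts of these complexes were slightly higher in si-CDCP1 than in si-NC cultures on median, with Cycs the furthest from the control values in relation to its spread. Of the 41 members that could be tested, 33 had a higher mean on the log scale in si-CDCP1 and 8 a lower one. It was higher for 52.3% of all 12080 genes tested. The median log2 difference of the members was 0.09, which compares with 0.01 over all those genes. The differences of single members ran from -0.09 for Atp5a1 to 0.29 for Cycs, so each was small. No member passed the test after Benjamini-Hochberg adjustment over all genes, and neither did any other gene (limma, 0 of 12080, 0.0%). At an unadjusted p under 0.05, limma gave 13 members higher in si-CDCP1 and 0 lower, beside 8.94% of all genes higher and 5.31% lower. For 12 of the 41 tested members all 3 si-CDCP1 libraries lay above all 3 si-NC libraries, which held for 14.4% of all genes, and for 0 of the 41 all lay below, against 10.6% of all genes. All differences are on the log2(FPKM + 1) scale, and only genes that averaged 1 FPKM or more were tested.

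The 3 si-CDCP1 libraries did not contribute alike. The median deviation of the 41 members from the si-NC mean was 0.17 in si-CDCP1 replicate 1, 0.10 in replicate 2 and 0.06 in replicate 3, and it lay between -0.02 and 0.02 in the si-NC libraries. Replicate 1 held the highest value of the 6 libraries for 21 members, beside 16.4% of all genes. For 24 members both si-CDCP1 replicates 1 and 2 lay above every si-NC library, while replicate 3 lay below at least 1 si-NC library for 22 members. The matching shares of all genes are not given here, so these counts describe the members only. Without si-CDCP1 replicate 3 the median difference of the members was 0.13, 35 of 41 differences were positive and 21 members had an unadjusted p under 0.05 in the higher direction (10.7% of all genes in that fit) and 0 in the lower (5.78%). Without si-CDCP1 replicate 1 those counts were 8 (10.6% of all genes) and 0 (7.03%).

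**Figure D1:**
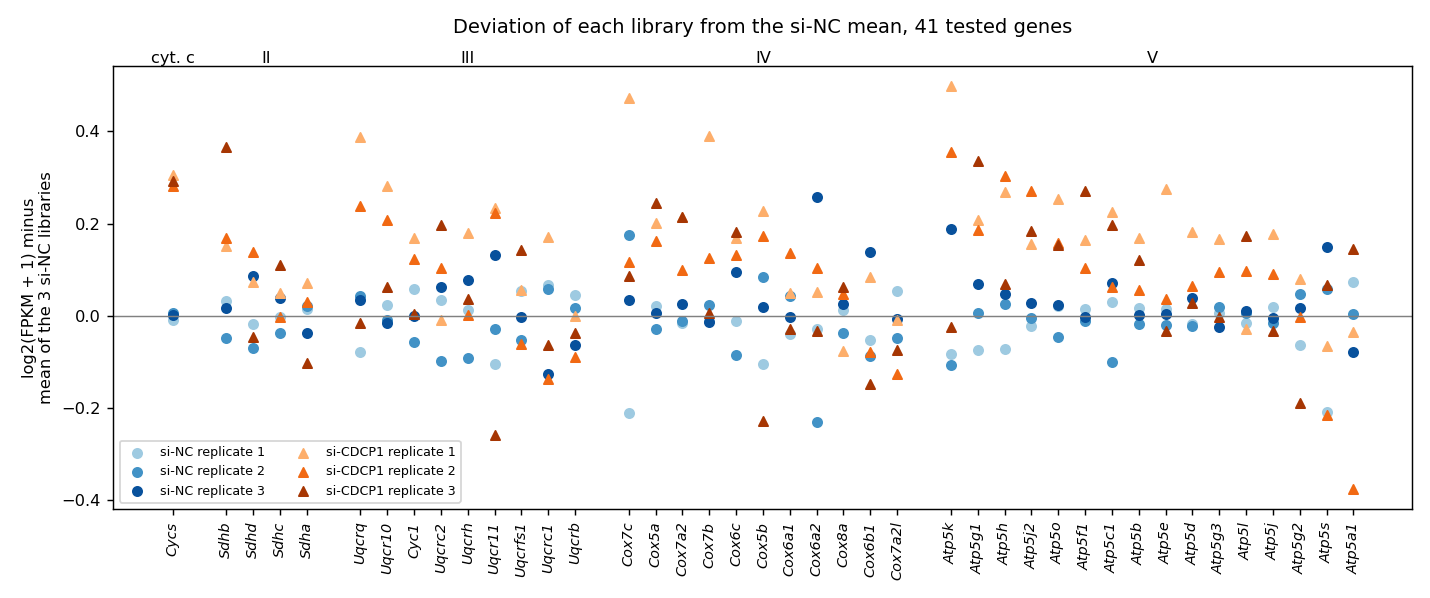
Deviation of each library from the mean of the 3 si-NC libraries on the log2(FPKM + 1) scale, for the 41 tested members grouped by complex and ordered by the difference between the groups. Circles are si-NC and triangles si-CDCP1 libraries, the darkest triangles being si-CDCP1 replicate 3. The triangles of Cycs lie close together above all circles. For 22 members the darkest triangle lies below at least 1 circle, a count given without the share of all genes.

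Cytochrome c showed the most even separation of the groups. Cycs (ENSMUSG00000063694, mm10 chromosome 6, 50562563 to 50566538, minus strand) measured 33.5, 33.8 and 33.7 FPKM in si-NC replicates 1, 2 and 3. It measured 41.8, 41.1 and 41.4 FPKM in si-CDCP1 replicates 1, 2 and 3. All 3 si-CDCP1 libraries, replicate 3 included, were above all si-NC libraries, and within each group the values spanned less than 1 FPKM. The log2 difference was 0.29 (SE 0.041, 95% interval 0.196 to 0.390), or 23.2% more mean FPKM. The unadjusted limma p of 0.000178 ranked 10 among all genes, and after adjustment it was 0.216, short of the threshold. Over the 21 alternative settings the adjusted p ran from 0.000946 to 0.643 while the difference stayed positive.

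Whether Cycs and other members passed differed between fits. When limma estimated a weight for each library, si-CDCP1 replicate 2 received 5.11, replicate 1 received 0.600 and replicate 3 received 0.165, so that the si-CDCP1 mean there rested mostly on replicate 2. In that fit the adjusted p of Cycs was 0.00899, and 9 members passed in the higher direction (4.62% of all genes) and none in the lower (2.54%). Those 9 were Cycs, Sdhb, Uqcr10, Uqcrq, Cox5a, Atp5g1, Atp5h, Atp5j2 and Atp5o. In the limma fit to FPKM without si-CDCP1 replicate 3 no gene passed (0.0% of 12107), and the adjusted p of Cycs was 0.0683. With limma's voom method on reads recovered from the FPKM and without si-CDCP1 replicate 3, 7 members passed in the higher direction (2.4% of 14267 genes) and 0 in the lower (1.06%), and they were these 9 less Sdhb and Cox5a. With voom on all 6 libraries no member passed, and no gene at all passed in the higher direction (0.0% of 14365 genes) and 5 in the lower (0.0348%).

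The genes whose values followed Cycs most closely over the 6 libraries were Rrs1 (Pearson r = 0.996), Psma1 (0.992), Eif4ebp1 (0.991), Marcksl1 (0.989) and Mnt (0.988). This is a description over 6 libraries that share 1 scaling, chosen as the highest of all tested protein-coding genes. Rrs1, a factor of ribosome assembly, measured 41.4, 42.6 and 42.5 FPKM in si-NC and 50.2, 50.3 and 50.3 FPKM in si-CDCP1.

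In complex II the iron-sulfur subunit Sdhb was set apart from the other 3 subunits. Sdhb (ENSMUSG00000009863, mm10 chromosome 4, 140961203 to 140979193, plus strand) measured 34.6, 32.7 and 34.2 FPKM in si-NC and 37.7, 38.2 and 43.9 FPKM in si-CDCP1. The groups did not overlap, and si-CDCP1 replicate 3 was the highest. The log2 difference was 0.23 (SE 0.068, limma adjusted p = 0.286, range over the alternatives 0.0383 to 0.643). Without si-CDCP1 replicate 3 it was 0.16.

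Sdha, the flavoprotein that carries the succinate site, measured 38.0, 38.1 and 36.6 FPKM in si-NC and 39.5, 38.4 and 34.9 FPKM in si-CDCP1. Sdhd, a membrane anchor, measured 83.3, 80.3 and 89.5 FPKM in si-NC and 88.7, 92.8 and 81.6 FPKM in si-CDCP1. Sdhc, the other membrane anchor, measured 22.4, 21.8 and 23.1 FPKM in si-NC and 23.2, 22.4 and 24.3 FPKM in si-CDCP1. In all 3 the groups overlapped, and the log2 differences of -0.00 (SE 0.058), 0.06 (SE 0.066) and 0.05 (SE 0.051) for Sdha, Sdhd and Sdhc were within about 1 SE of 0. Over complex II, 3 of 4 differences were positive, with a median of 0.05.

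In complex III the 2 small subunits Uqcrq and Uqcr10 had the largest differences, each with si-CDCP1 replicates 1 and 2 above the controls and replicate 3 close to them. Uqcr10 (ENSMUSG00000059534, mm10 chromosome 11, 4701973 to 4704342, minus strand) measured 73.0, 71.4 and 71.1 FPKM in si-NC and 87.5, 83.1 and 75.1 FPKM in si-CDCP1. The groups did not overlap, and the log2 difference was 0.18 (SE 0.063, limma adjusted p = 0.312). Uqcrq (ENSMUSG00000044894, mm10 chromosome 11, 53427922 to 53430831, minus strand) measured 79.5, 86.6 and 86.1 FPKM in si-NC and 110.2, 99.3 and 83.1 FPKM in si-CDCP1. Here the groups overlapped through si-CDCP1 replicate 3, and the log2 difference of 0.20 (SE 0.101, limma adjusted p = 0.392) became 0.31 without it.

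Cyc1, the cytochrome c1 heme protein that hands electrons to cytochrome c, measured 101.5, 93.7 and 97.5 FPKM in si-NC and 109.8, 106.3 and 97.8 FPKM in si-CDCP1. Its si-CDCP1 replicate 3 lay among the controls, and the difference of 0.10 (SE 0.060, limma adjusted p = 0.455) was 0.15 without that library. The core protein Uqcrc2 (0.10), the Rieske iron-sulfur protein Uqcrfs1 (0.05), the hinge protein Uqcrh (0.07) and Uqcr11 (0.07) had small positive differences, and Uqcrb (-0.04) and the core protein Uqcrc1 (-0.01) small negative ones. None of these 6 reached an unadjusted p under 0.05 over all libraries. Without si-CDCP1 replicate 3 the difference of Uqcr11 was 0.23, with an unadjusted p under 0.05, that of Uqcrc2 was 0.05 and that of Uqcrfs1 -0.00. Over complex III, 7 of 9 differences were positive with a median of 0.07. An unadjusted p under 0.05 was found for 1 member, Uqcr10, which was higher (8.94% of all genes).

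In complex IV the tested differences ran from -0.07 for Cox7a2l to 0.23 for Cox7c, and 2 of the 11 were negative. Cox5a (ENSMUSG00000000088, mm10 chromosome 9, 57521274 to 57532426, plus strand), a subunit on the matrix side, measured 22.4, 21.6 and 22.1 FPKM in si-NC and 25.5, 24.8 and 26.3 FPKM in si-CDCP1. The groups did not overlap, and all 3 si-CDCP1 libraries were higher by about the same amount. The log2 difference was 0.20 (SE 0.047, limma adjusted p = 0.267, range over the alternatives 0.0301 to 0.643).

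Cox6c, a small membrane subunit, measured 29.4, 27.9 and 31.7 FPKM in si-NC and 33.5, 32.6 and 33.8 FPKM in si-CDCP1, without overlap. Its log2 difference was 0.16 (SE 0.058, limma adjusted p = 0.32). The gene lies on the strand opposite to Vps13b, with which it shares 5344 bases of mm10. Vps13b averaged 9.20 FPKM, and because the strand setting of the counting is not given in the sources used here, reads of the shared stretch cannot be told apart.

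Cox8a, the most abundant subunit of the complex on the per-length scale, measured 291, 281 and 293 FPKM in si-NC and 273, 298 and 301 FPKM in si-CDCP1. Its groups overlapped, and the log2 difference of 0.01 (SE 0.054) had a 95% interval from -0.116 to 0.140. Cox6b1, on the intermembrane side, measured 57.2, 55.9 and 65.5 FPKM in si-NC and 63.0, 56.2 and 53.5 FPKM in si-CDCP1, again with overlap and with a log2 difference of -0.05 (SE 0.084). For Cox7b the values were 33.9, 34.7 and 33.8 FPKM in si-NC and 45.1, 37.3 and 34.3 FPKM in si-CDCP1, with replicate 3 among the controls, and the difference of 0.17 (SE 0.095, limma adjusted p = 0.425) was 0.26 without it. Cox7c (0.23) and Cox5b (0.06) were also higher on average with overlapping groups, and without si-CDCP1 replicate 3 their differences were 0.30 and 0.20. Over complex IV, 9 of 11 tested differences were positive with a median of 0.06, which was 0.15 without si-CDCP1 replicate 3.

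The COX7A paralogs of complex IV had differences of opposite sign, neither past the adjusted threshold. Cox7a2 (ENSMUSG00000032330, mm10 chromosome 9, 79755361 to 79759878, minus strand), the widely expressed copy, measured 42.1, 42.2 and 43.4 FPKM in si-NC and 49.6, 45.7 and 49.6 FPKM in si-CDCP1. Cox7a2l, a related protein that joins complexes III and IV into supercomplexes, measured 169.6, 158 and 162 FPKM in si-NC and 162, 149.5 and 155 FPKM in si-CDCP1. The groups did not overlap for Cox7a2 and overlapped for Cox7a2l. The log2 difference was 0.18 (SE 0.050, limma adjusted p = 0.28) for Cox7a2 and -0.07 (SE 0.052, limma adjusted p = 0.533) for Cox7a2l.

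As a share of the summed FPKM of the 3 COX7A genes, Cox7a2 took 19.8%, 21.0% and 21.0% in si-NC and 23.3%, 23.3% and 24.1% in si-CDCP1. Cox7a2l took 79.7%, 78.4% and 78.5% in si-NC and 76.3%, 76.4% and 75.5% in si-CDCP1. The shares of the 2 groups did not overlap for either gene. For each of these shares p = 0.1 in a two-sided exact permutation test, the smallest that 3 libraries against 3 can give, and 0.24 after adjustment over the 12 shares tested. Because these are shares of 1 sum, the shift in Cox7a2 and that in Cox7a2l are not separate results.

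Of the copies typical of heart and skeletal muscle, Cox7a1 and Cox8b were low and Cox6a2 was not. Cox7b2, Cox6b2 and Cox8c, other alternative copies of complex IV subunits, were not detected. Cox7a1 had 12, 11 and 10 reads in si-NC and 8, 4 and 6 reads in si-CDCP1, below the filter. Fitted without a filter, its log2 difference was -0.36 (SE 0.120, limma adjusted p = 0.511), with all si-CDCP1 libraries below all si-NC libraries. Cox8b had 0, 1 and 0 reads in si-NC and 2, 0 and 0 reads in si-CDCP1, and Cox7b2, Cox6b2 and Cox8c had 0 reads in every library, which allows up to between 0.135 and 0.420 FPKM for these 3 genes at a floor of 3 reads per library. The COX6B, COX7B and COX8 sets thus consisted almost wholly of Cox6b1, Cox7b and Cox8a.

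Cox6a2, the muscle copy of subunit VIa, measured 17.8, 15.3 and 21.9 FPKM in si-NC and 18.9, 19.6 and 17.7 FPKM in si-CDCP1. Its widely expressed counterpart Cox6a1 measured 214, 226 and 219 FPKM in si-NC and 228, 242 and 215 FPKM in si-CDCP1. Both sets of groups overlapped, and the log2 differences were 0.04 (SE 0.118) and 0.05 (SE 0.057). Cox6a1 took 92.3% ± 1.36 of their sum in si-NC and 92.4% ± 0.0823 in si-CDCP1 (SD, n = 3 each, exact permutation p = 0.7). Cox6a2 lies within the span of Itgad on the opposite strand, and Itgad averaged 0.0775 FPKM. Of the 8 striated muscle markers, Cox6a2 was the only one that averaged 1 FPKM or more.

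**Figure D2:**
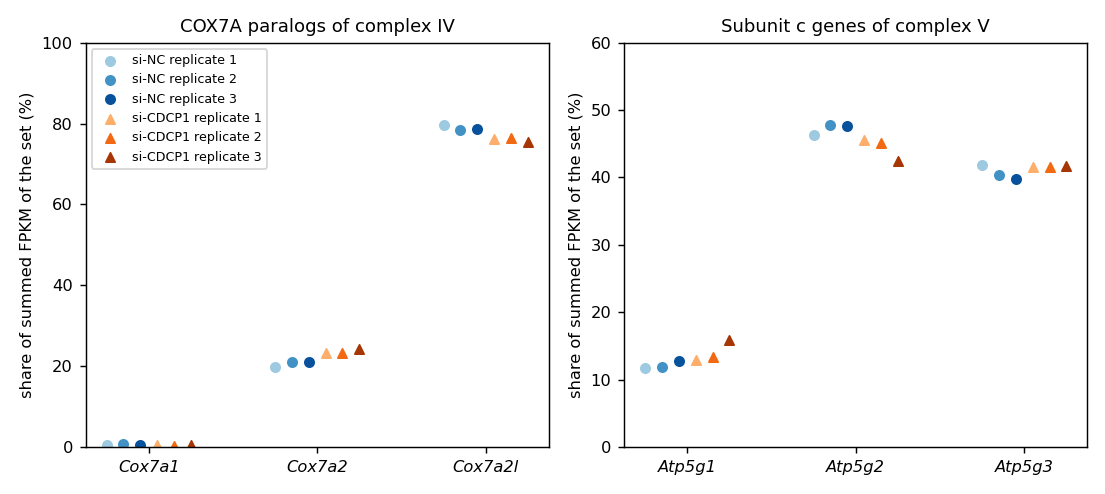
Share of each gene in the summed FPKM of its paralogs, in percent, for the COX7A genes of complex IV and the genes of subunit c of complex V, with 1 point per library. Cox7a2 sits between 19.8% and 21.0% in si-NC and between 23.3% and 24.1% in si-CDCP1, and Atp5g1 between 11.8% and 12.7% in si-NC and between 12.8% and 15.9% in si-CDCP1.

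Complex V had the highest median difference of the 4 complexes, 0.10, with 13 of 16 differences positive (52.3% of all genes). Of its members 7 had an unadjusted p under 0.05, all in the higher direction (8.94% of all genes). The order of the complexes turned without si-CDCP1 replicate 3, with a median of 0.13 in complex V and 0.15 in complex IV. The differences between complexes were not tested. Atp5g1 (ENSMUSG00000006057, mm10 chromosome 11, 96068852 to 96075670, minus strand), the first of 3 genes for the same mature subunit c of the membrane ring, measured 19.9, 21.1 and 22.0 FPKM in si-NC and 24.4, 24.0 and 26.7 FPKM in si-CDCP1. The groups did not overlap, and the log2 difference was 0.24 (SE 0.063, limma adjusted p = 0.267, range over the alternatives 0.0359 to 0.643). A pseudogene row described by the same protein, Gm10039, held 2795 reads over the 6 libraries against 11621 for Atp5g1. With the reads of such pseudogenes added, the difference was 0.24 and the unadjusted p 0.00605.

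The other 2 genes of subunit c had smaller differences. Atp5g2 measured 78.1, 84.4 and 82.6 FPKM in si-NC and 86.4, 81.6 and 71.5 FPKM in si-CDCP1, with overlap and a log2 difference of -0.04 (SE 0.076), which was 0.04 without si-CDCP1 replicate 3. Atp5g3 measured 70.5, 71.2 and 69.1 FPKM in si-NC and 78.9, 75.1 and 70.1 FPKM in si-CDCP1, with a log2 difference of 0.09 (SE 0.055), which was 0.13 without that library. The share of Atp5g1 in the sum of the 3 was 12.1% ± 0.484 in si-NC and 14.0% ± 1.63 in si-CDCP1 (SD, n = 3 each, exact permutation p = 0.1, adjusted p = 0.24). That of Atp5g2 was 47.2% ± 0.763 and 44.4% ± 1.66 (exact permutation p = 0.1, adjusted p = 0.24), and that of Atp5g3 40.6% ± 1.10 and 41.6% ± 0.0406 (exact permutation p = 0.4). The lowest si-CDCP1 share of Atp5g1, 12.8%, was close to the highest si-NC share, 12.7%.

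Members of the stalk and of the membrane part were among those with the smallest p. Atp5j2 (subunit f; ENSMUSG00000038690, mm10 chromosome 5, 145183698 to 145192062, minus strand) measured 18.3, 18.5 and 18.9 FPKM in si-NC and 20.8, 22.6 and 21.2 FPKM in si-CDCP1. Atp5o (the oligomycin sensitivity protein of the peripheral stalk; ENSMUSG00000022956, mm10 chromosome 16, 91684398 to 91931687, minus strand) measured 39.9, 38.1 and 40.0 FPKM in si-NC and 47.1, 43.9 and 43.9 FPKM in si-CDCP1. In both genes every si-CDCP1 library was above every si-NC library. The log2 differences were 0.20 (SE 0.051) for Atp5j2 and 0.19 (SE 0.050) for Atp5o, each with an adjusted p of 0.267. The annotated span of Atp5o overlaps Cryzl1 and Donson on its own strand and Itsn1 on the other, at 9.67, 9.17 and 3.41 FPKM, so that some of its reads may be shared with them.

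For Atp5h (subunit d of the stalk) the si-NC mean was 39.5 ± 1.77 FPKM and the si-CDCP1 mean 46.1 ± 4.02 FPKM (SD, n = 3 for both), a log2 difference of 0.21 with an unadjusted limma p of 0.0224. The pseudogene Gm10250, with 1573 reads against 6460 for Atp5h, bore on that value: with pseudogene reads added, the difference was 0.14 and the unadjusted p 0.0925. Atp5f1 (subunit b of the stalk) differed by 0.18 (limma adjusted p = 0.289), and it overlaps Wdr77 on the opposite strand by 731 bases. The gamma subunit Atp5c1, in the central stalk, differed by 0.16 (limma adjusted p = 0.346).

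The 2 subunits of the catalytic head differed widely in listed value. Atp5b, the beta subunit and the most abundant of all members per length, measured 291, 284 and 288 FPKM in si-NC and 324, 299 and 313 FPKM in si-CDCP1. The groups did not overlap, and the log2 difference was 0.12 (SE 0.048, limma adjusted p = 0.346). Atp5a1, the alpha subunit that alternates with beta in the protein, measured 7.07, 6.69 and 6.26 FPKM in si-NC and 6.49, 4.91 and 7.48 FPKM in si-CDCP1, with a log2 difference of -0.09 (SE 0.130), or -0.20 without si-CDCP1 replicate 3, and overlapping groups. The ratio of Atp5b to Atp5a1 was between 41.2 and 60.9 in FPKM and between 55.7 and 82.3 in reads. The core proteins of complex III showed the same kind of gap, Uqcrc2 over Uqcrc1 being between 26.6 and 42.2 in FPKM. Because the organism label is rat and the build is that of mouse, a low level and reads that did not match the mouse gene cannot be told apart in these ratios.

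The remaining 7 members of complex V had no unadjusted p under 0.05. Atp5k (subunit e, 0.28, SE 0.144, limma adjusted p = 0.405) had the second largest difference of the tested members, and its si-CDCP1 libraries were spread widely, at 18.4, 16.5 and 12.5 FPKM. The delta subunit Atp5d (0.09), the epsilon subunit Atp5e (0.09), coupling factor 6 Atp5j (0.08) and subunit g Atp5l (0.08) were slightly higher on average, together with Atp5g3. Without si-CDCP1 replicate 3 the differences were 0.43 for Atp5k, 0.16 for Atp5e, 0.13 for Atp5j and 0.03 for Atp5l. Atp5s, whose product is not part of the enzyme proper, differed by -0.07 at 2.26 FPKM. Pseudogene rows held more than 10% of the combined reads for 4 members, from 19.4% for Atp5g1 to 25.9% for Atp5l, with Atp5h and Cox7c between them.

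Within each complex the levels differed far more than the groups did. On the per-length scale, means over the 6 libraries ran from 22.8 FPKM (Sdhc) to 86.0 FPKM (Sdhd) in complex II and from 1.24 FPKM (Uqcrc1) to 101 FPKM (Cyc1) in complex III. In complex IV the tested members ran from 18.5 FPKM (Cox6a2) to 289 FPKM (Cox8a) and in complex V from 2.26 FPKM (Atp5s) to 299.9 FPKM (Atp5b). The gene lengths in the table set part of this order, since Atp5l is listed at 6443 bases and Cox6c at 3567 bases although both encode small proteins.

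**Figure D3:**
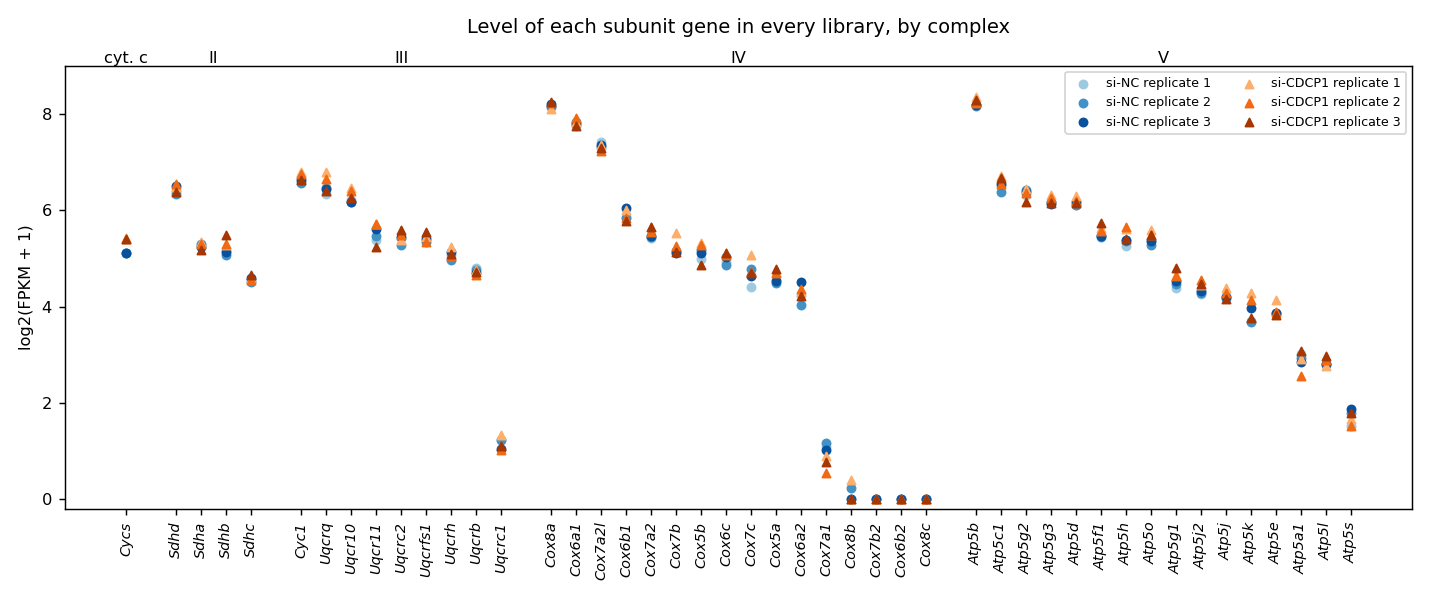
Level of the 46 members in the 6 libraries as log2(FPKM + 1), by complex and ordered by mean within it. Circles are si-NC and triangles si-CDCP1 libraries. The spread between libraries is small beside the range of levels, Uqcrc1, Atp5a1 and Atp5s lie far below their partners, and Cox7b2, Cox6b2 and Cox8c are at 0 throughout.

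**Figure D4:**
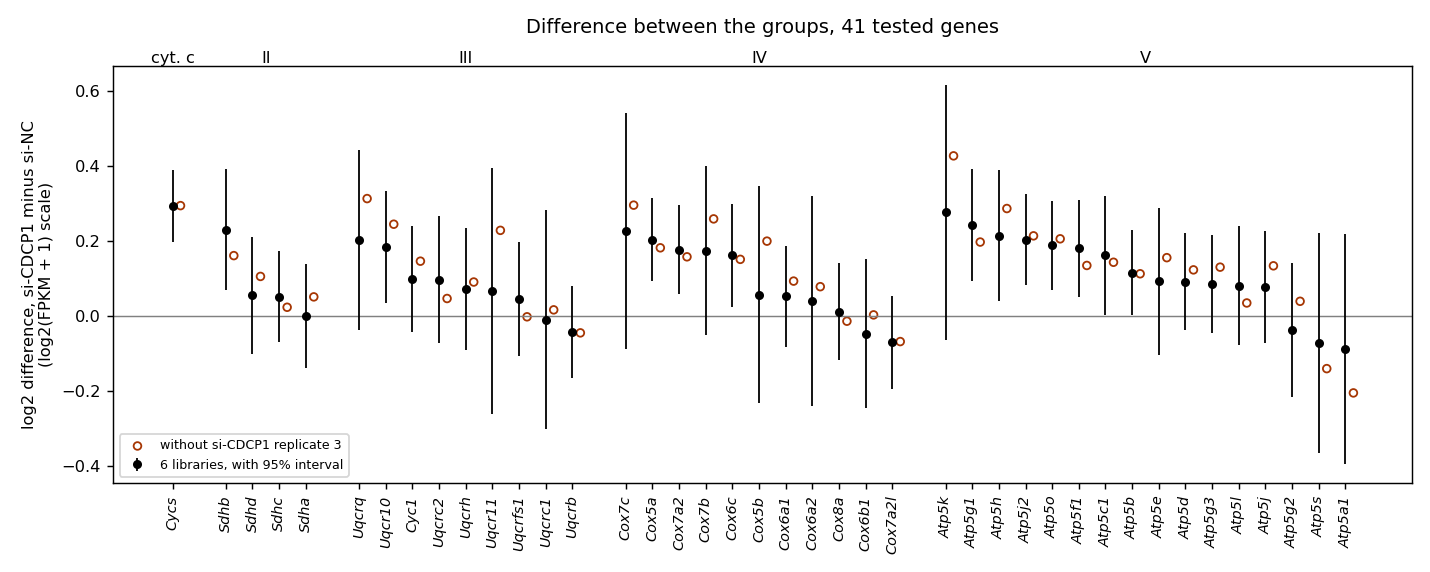
Difference between si-CDCP1 and si-NC on the log2(FPKM + 1) scale for the 41 tested members. Filled points with bars give limma's estimate and its 95% interval over 6 libraries, and open points the estimate without si-CDCP1 replicate 3. The interval lies above 0 for 13 members and below 0 for none, and no member passed after adjustment over all genes.

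Gene length moved with the values of some libraries. Over all tested genes the deviation from the mean of all 6 libraries was correlated with gene length. The Spearman correlation was -0.312 in si-CDCP1 replicate 1 and -0.0437 to 0.0899 in the other 5 libraries. Because all 6 deviations share that mean, these correlations are not independent of each other. The members are short, with a median listed length of 1908 bases against 3980 bases for all tested genes. Among all protein-coding genes of 1 to 2 kb the median deviation from the si-NC mean in si-CDCP1 replicate 1 was 0.0966. It was 0.224 for the 13 members of that length. For the 11 members of 3 to 5 kb it was 0.169, against 0.0157 for all protein-coding genes of that length. At 2 to 3 kb it was 0.166 for the 7 members and 0.0581 for all protein-coding genes. Under 1 kb the members were the lower ones, at 0.0835 for 9 members against 0.121 for all protein-coding genes. With the length trend of each library removed, the median difference of the members was 0.06 with 32 of 41 positive, and 11 had an unadjusted p under 0.05 in the higher direction (7.68% of all genes) and 1, Cox7a2l, in the lower (6.37%).

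The scaling between libraries moved the members and the genes at large. When the FPKM of all libraries were scaled to equal sums, the median of the members was 0.04 with 28 of 41 positive. Over all 12080 genes of the main fit the median was then -0.04, with 4634 positive. With equal sums 8 members had an unadjusted p under 0.05 in the higher direction (4.44% of all genes) and 1, Cox7a2l, in the lower (10.8%). Under quantile normalisation the median of the members was 0.03, with 5 members higher (6.54% of all genes) and again Cox7a2l lower (6.61%). The difference of Cycs was 0.24 with equal sums and 0.22 under quantile normalisation.

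**Figure D5:**
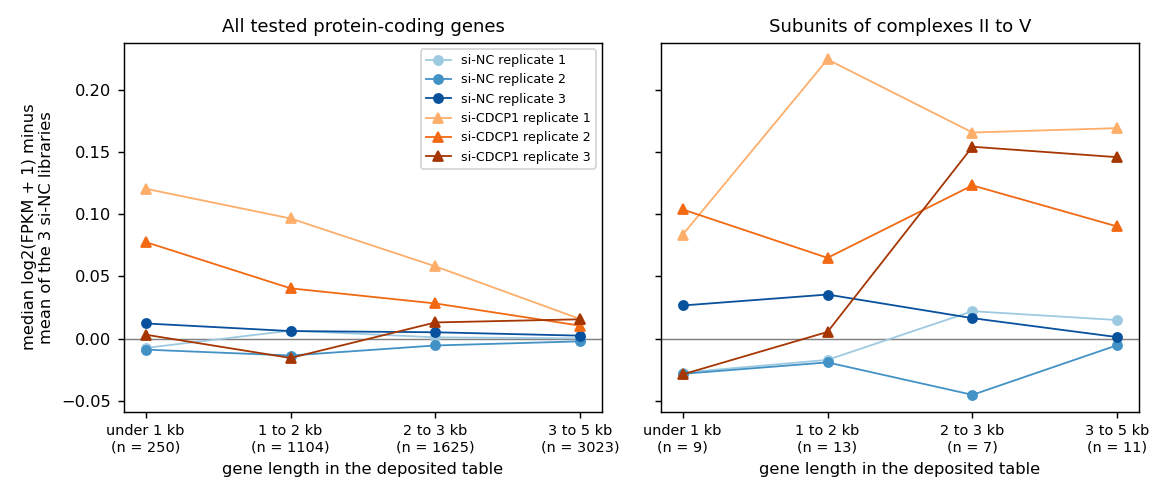
Median deviation from the si-NC mean on the log2(FPKM + 1) scale by gene length, for all tested protein-coding genes and for the members, with 1 line per library and the number of genes under each bin. In si-CDCP1 replicate 1 the median of all protein-coding genes is 0.121 under 1 kb and 0.0157 at 3 to 5 kb. That of the members is 0.0835 under 1 kb and 0.169 at 3 to 5 kb. The bins of members hold 7 to 13 genes each, and the single member over 5 kb is not drawn.

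Subunits that the name rule leaves out lay on the same side. Of 7 such genes 5 were tested, and all 5 differences were positive (52.3% of all genes) with a median of 0.12. In the higher direction 2 had an unadjusted p under 0.05 (8.94% of all genes). They were Usmg5 (0.22, a small ATP synthase subunit) and Atpif1 (0.14, the inhibitor of the enzyme's ATP hydrolysis). For Cox4i1 the si-NC mean was 229 ± 3.99 FPKM and the si-CDCP1 mean 245 ± 14.2 FPKM (SD over 3 libraries each, log2 difference 0.09, limma adjusted p = 0.444). Cox4i1 made up 99.9% of the 2 subunit IV genes in si-NC and 100% in si-CDCP1.

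The subunits encoded in mitochondrial DNA depended on si-CDCP1 replicate 3. Of 6 genes for complexes III to V, 5 differences were positive with a median of 0.13, but without replicate 3 only 2 were positive and the median was -0.08. Cytochrome b (mt-Cytb) measured 2034, 2053 and 2118 FPKM in si-NC and 2243, 2305 and 2703 FPKM in si-CDCP1, without overlap (log2 difference 0.22, limma adjusted p = 0.32), and its difference was 0.14 without replicate 3. For mt-Co3 the values were 50.5, 54.3 and 46.5 FPKM in si-NC and 48.1, 42.2 and 243 FPKM in si-CDCP1, so that the positive mean difference came from replicate 3 alone.

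Assembly factors of complexes II to V lay nearer to all genes in their median than the members did. Of 42 listed genes 35 were tested and 22 differences were positive (62.9%, against 52.3% of all genes). The median was 0.03, against 0.01 over all genes. In the higher direction 4 had an unadjusted p under 0.05 (8.94% of all genes) and in the lower 0 (5.31%). The copper chaperone Sco1 had the smallest p (6.34, 6.75 and 6.70 FPKM in si-NC against 7.40, 7.77 and 9.26 FPKM in si-CDCP1, log2 difference 0.26), followed by Higd1a (0.14) and the F1 assembly factor Atpaf2 (0.14). None passed after adjustment.

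All 13 listed genes for the transcription of nuclear or mitochondrial respiratory genes had positive differences (52.3% of all genes), with a median of 0.11. Of these, Tfam, Tfb1m, Tfb2m and Polrmt act on mitochondrial DNA. In the higher direction 3 had an unadjusted p under 0.05 (8.94% of all genes). Nrf1, which binds the promoters of many respiratory genes, measured 5.84, 5.66 and 5.74 FPKM in si-NC and 6.65, 6.71 and 7.79 FPKM in si-CDCP1. Its groups did not overlap (log2 difference 0.25, limma adjusted p = 0.277). The mitochondrial transcription factor Tfam (0.14) and the coactivator Ppargc1a (0.24, or 0.13 without si-CDCP1 replicate 3) were the others. Without si-CDCP1 replicate 3 the median of the list was 0.07 with 11 of 13 positive.

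Of 17 citric acid cycle and pyruvate dehydrogenase genes, 10 differences were positive (52.3% of all genes) with a median of 0.05. An unadjusted p under 0.05 was found for 4, all higher, beside 8.94% of all genes higher and 5.31% lower. Fumarase, Fh1, which takes the fumarate made by complex II, measured 19.8, 18.4 and 19.0 FPKM in si-NC and 22.3, 21.9 and 22.8 FPKM in si-CDCP1 (log2 difference 0.22, limma adjusted p = 0.267). Pdha1 (0.15) and Dld (0.22, or 0.14 without si-CDCP1 replicate 3) came next. Of 12 tested genes of coenzyme Q synthesis, 8 were positive with a median of 0.08, with Coq3 (0.24) and Coq5 (0.22), both methyltransferases, at an unadjusted p under 0.05 in the higher direction and Coq8b (-0.25) in the lower. The medians of these 2 lists were 0.03 and 0.04 without si-CDCP1 replicate 3, and no gene of either had an unadjusted p under 0.05 in the lower direction. Among 6 carriers and outer membrane channels the median was 0.04, and Vdac3 (0.18) alone had an unadjusted p under 0.05. Without that library the median was 0.07, Vdac3 differed by 0.11 and no gene of the list had such a p.

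Genes with names like those of complex I subunits (Nduf) and of cytosolic ribosomal proteins (Rpl or Rps and a digit) served as 2 larger sets. These were taken by name only, so they can also hold assembly factors of complex I and kinases named after a ribosomal protein. Ndufa4, counted above among the subunits that the rule leaves out, is in the Nduf set as well. Of 44 tested genes with Nduf names, 33 differences were positive (75.0%). In the higher direction 11 had an unadjusted p under 0.05 and in the lower 0. Their median was 0.05, or 0.11 without si-CDCP1 replicate 3. Of 92 tested genes with Rpl or Rps names, 71 differences were positive (77.2%), and the median was 0.06, or 0.11 without that library. An unadjusted p under 0.05 was found for 11 of them in the higher direction and 1 in the lower. Positive differences among the members made up 80.5%, beside 52.3% of all genes tested. An unadjusted p under 0.05 held for 8.94% of all genes in the higher direction and 5.31% in the lower. Nothing particular to complexes II to V was tested against these sets.

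The levels of cell type markers are given here beside the members, and their part in the results was not tested. The summed level of the 9 smooth muscle markers was between 46.0 and 50.5 FPKM in si-NC and between 44.7 and 75.9 FPKM in si-CDCP1, where the upper end was replicate 3, with Acta2 at 64.2 FPKM. The 5 fibroblast markers summed to between 277 and 309.9 FPKM in si-NC and between 274 and 308 FPKM in si-CDCP1. The 4 adipocyte markers summed to between 9.34 and 11.9 FPKM in si-NC and between 12.2 and 18.6 FPKM in si-CDCP1, with Lpl and Fabp4 the only ones at 1 FPKM or more. The 4 blood and macrophage markers summed to between 1.30 and 1.33 FPKM in si-NC and between 0.727 and 0.891 FPKM in si-CDCP1, with Cd68 the only one at 1 FPKM or more. The 4 endothelial markers summed to 0.515 FPKM or less and the 3 epithelial markers to 0.218 FPKM or less in every library. In these cultures fewer cells of a type and less RNA per cell cannot be told apart.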

How the data were processed

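RNA was sequenced from 3 si-NC and 3 si-CDCP1 libraries. The authors deposited 1 table of FPKM with a length, type and mouse Ensembl identifier per gene, per the file headers, and the build is mm10, per the submitters' processing notes. The aligner, the counting tool and its handling of strand and of reads with several matches were not given in the sources used here. FPKM times gene length gave whole reads in every library (100% of values within 0.01 of a whole read), and the implied totals already contain a scaling between libraries. Members, lists, tests and alternatives were chosen with earlier results of these data known. The 12080 genes that averaged 1 FPKM or more were tested on log2(FPKM + 1) with limma 3.58.1 (R 4.3.3), a moderated two-sided test with intensity trend and Benjamini-Hochberg adjustment over all of them, threshold 0.05. No pairing was used. The fit was also run on simulated reads. These held no library that stood apart and no length trend, so nothing is drawn from that run here. Voom used genes with at least 10 reads in 3 libraries. Shares of paralogs were compared by exact permutation tests in SciPy 1.17.1. Values in every library are given for Cycs, Cyc1, the Sdh genes, the 3 members with the smallest p and the most abundant member of complexes III, IV and V, and the paralogs; those of Rrs1, Atp5a1, mt-Cytb, mt-Co3, Sco1, Nrf1 and Fh1 and part of those of Atp5k were added once the values were known. Of each other list up to 3 genes with the smallest p are named, besides Cox4i1. Reads of 16 members could be shared with overlapping genes, and 22 share a description with pseudogene rows that hold reads. No pair of replicates was a duplicate (chi-square per degree of freedom at least 2.98). A floor given in reads covers no error but that of counting. Sequences were not used here.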

Additional observations from a re-analysis of the deposited data

How the results depend on the processing

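The directions of Cycs, Sdhb, Uqcrq, Uqcr10, Cox5a, Cox6c, Cox7a2, Cox7b, Atp5b, Atp5g1, Atp5g3, Atp5j2 and Atp5o (higher) and of Cox7a2l (lower) held under all 21 alternatives, pseudocounts of 0.1 and 0.01 FPKM included. Over all tested genes the adjusted calls, higher and lower, were 2 and 5 without a filter, 1 and 3 at a mean of at least 5 FPKM, 0 and 1 with equal FPKM sums, 0 and 2 under quantile normalisation, 558 and 307 with library weights, 0 and 3 with the length trend removed, 0 and 2 for protein-coding genes, 0 and 5 with voom, 1 and 8 with the length trend removed without si-CDCP1 replicate 3, and 342 and 151 with voom without that library, and 0 to 1 in each direction when single libraries were left out. Members that passed numbered 9 with library weights, 7 with voom without si-CDCP1 replicate 3 and 0 under the other alternatives. Members with an unadjusted p under 0.05 in the higher direction (13) numbered 8 with equal sums (4.44% of all genes) and 5 under quantile normalisation (6.54%). They numbered 21 with library weights (1953 of 12080 genes) and 23 with voom without replicate 3 (1429 of 14267 genes). When single libraries were left out they numbered between 8 and 21, beside between 600 and 1298 of all genes. In the lower direction there was 1 without a filter (Cox7a1, beside 1042 of all genes). Cox7a2l was the only 1 with equal sums (10.8% of all genes), quantile normalisation (6.61%) or the length trend removed (6.37%). There were 2 with library weights (Cox7a2l and Atp5a1, beside 1558 of all genes). With the length trend removed without replicate 3 there were also 2 (Cox7a2l and Uqcrb, beside 828 of all genes).

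The median of the members was 0.038 with equal sums (-0.039 over all genes of the main fit), 0.033 under quantile normalisation and 0.14 with voom without replicate 3. It was between 0.056 and 0.13 when single libraries were left out. For complex II it was 0.00058 with equal sums and -0.018 under quantile normalisation. For complex V it was 0.052, 0.063 and, with voom without replicate 3, 0.14. For complex IV it was 0.13 with library weights, 0.15 with voom without replicate 3 and between 0.010 and 0.17 when single libraries were left out.

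Some small differences changed sign, and the cause was not tested. With equal sums these were Sdhc (-0.00016), Cox8a (-0.042), Cox6a1 (-0.0018) and Cox6a2 (-0.010), and under quantile normalisation Sdhd (-0.043), Cyc1 (-0.028), Cox8a (-0.070) and Cox6a1 (-0.046). With library weights they were Sdha (0.033) and Atp5g2 (0.0044), with voom Sdha (0.00038), and with the length trend removed Cox8a (-0.016). With the length trend removed and replicate 3 left out they were Sdha (0.042), Sdhc (-0.00036) and Cox8a (-0.070), and with voom without replicate 3 Sdha (0.053), Cox8a (-0.015), Cox6b1 (0.0049) and Atp5g2 (0.043). When single libraries were left out, Sdha ranged from -0.036 to 0.051, Cox8a from -0.014 to 0.056, Cox6b1 from -0.11 to 0.022, Cox6a2 from -0.073 to 0.17 and Atp5g2 from -0.095 to 0.039.

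The deviations of same-numbered libraries correlated at -0.02, 0.0265 and 0.0223, and those of differently numbered libraries at -0.0466 to 0.0331. Because the deviations within each group of 3 sum to 0, these values cannot decide whether the replicate numbers pair the samples. With the replicate number as a block, 1 gene passed over all genes in the higher direction and no member passed. In that fit 12 members had an unadjusted p under 0.05 in the higher direction, beside 994 of all genes. Among the alternatives, adding pseudogene reads and voom without replicate 3 were chosen after the data had been seen. The planned edgeR test on recovered reads was not run because the deposited unit is FPKM, and voom used the deposited scaling in place of the planned TMM factors. With 3 libraries a group, differences of the size seen for most members (0.1 or less) were no larger than about 2 of their SEs.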
